A study of Homo sapiens with 9 samples.

Results

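Clustered EZH2 peaks on H3K27me3 alone were those EZH2 peaks of control cells that lay in a region of H3K27me3, in no region of H3K27ac, and with the edge of another EZH2 peak within 10 kb. The rule found 5756 such peaks on chromosomes 1 to 22 and X, which is 24.96% of the 23060 EZH2 peaks listed in control cells and 60.8% of the 9461 peaks on H3K27me3 alone on these chromosomes. The other 3705 peaks on H3K27me3 alone had no neighbour within 10 kb and are called solitary. The positions of control EZH2 peaks and the control lists of both marks chose the members, so every value from those 3 lists is a description of the members and was not tested.

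The peaks come from LNCaP, an established prostate cancer cell line grown in RPMI with serum, in which EZH2, H3K27ac and H3K27me3 were mapped by chromatin immunoprecipitation and sequencing. Cells of the shEZH2 group carried a lentivirus for knockdown of EZH2, cells of the control group carried the plko.1 vector, and both were fixed with 1% paraformaldehyde 2 to 3 days after infection. Each group had 1 library per target, and the same EZH2 antibody was used in both. The 6 peak lists of these groups were used, and 3 of the 9 samples deposited are not analysed here. How far EZH2 itself was depleted is not measured by these lists.

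EZH2 is the methyltransferase of Polycomb repressive complex 2 (PRC2), which trimethylates lysine 27 of histone H3. The mark forms broad domains over silenced developmental genes, many of which have promoters rich in CpG dinucleotides, and the complex is recruited to such CpG islands and also binds the mark it has made. Acetylation of the same lysine, H3K27ac, marks active promoters and enhancers and cannot be on the same histone tail residue as the methyl mark.

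The EZH2 libraries held 14514395 tags in shEZH2 cells and 13331155 tags in control cells, and the lists 9493 and 23060 peaks in the same cells. The H3K27me3 libraries held 26241104 tags in shEZH2 cells and 33289172 tags in control cells, and the H3K27ac libraries 22175405 tags in shEZH2 cells and 17438009 tags in control cells. Signal is given in normalised tags, the number of tags in a peak scaled to 10000000 tags per library. With 1 library per group, no difference between shEZH2 and control cells could be set against a spread between cultures. The 95% intervals cover counting error over peaks only, and since the peaks of a cluster share a locus and often an H3K27me3 region, they are too narrow.

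Developmental transcription factor genes were among the places where members lay close together. In a window around SOX2, a transcription factor of pluripotent and neural progenitor cells, 6 members formed 1 cluster. Around OTX2, a regulator of forebrain and eye development, 6 members formed 1 cluster, and around FOXC1, FOXF2 and FOXQ1, forkhead transcription factors of which FOXC1 acts in eye and mesenchymal development, 16 members formed 3 clusters. Gene names for such windows are general knowledge of the hg19 build, as no hg19 annotation was used. The promoters of SOX2, OTX2 and FOXC1 are printed to show what CpG-rich and CpG-poorer sequence at such genes looks like. They are the 250 bases before the RefSeq gene start in GRCh38.p14, 5′ to 3′ on the gene's strand, with each CG dinucleotide in capitals, and their position relative to the hg19 peaks was not determined. The SOX2 promoter lies at chr3:181711675-181711924 on the plus strand, that of OTX2, at the first of its starts in the table, at chr14:56810480-56810729 on the minus strand, and that of FOXC1 at chr6:1609665-1609914 on the plus strand.
SOX2 promoter: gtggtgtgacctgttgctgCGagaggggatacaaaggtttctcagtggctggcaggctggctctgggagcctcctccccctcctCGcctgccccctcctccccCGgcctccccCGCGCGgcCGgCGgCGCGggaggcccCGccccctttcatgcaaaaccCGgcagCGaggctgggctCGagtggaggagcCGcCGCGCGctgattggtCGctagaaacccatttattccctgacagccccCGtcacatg
OTX2 promoter: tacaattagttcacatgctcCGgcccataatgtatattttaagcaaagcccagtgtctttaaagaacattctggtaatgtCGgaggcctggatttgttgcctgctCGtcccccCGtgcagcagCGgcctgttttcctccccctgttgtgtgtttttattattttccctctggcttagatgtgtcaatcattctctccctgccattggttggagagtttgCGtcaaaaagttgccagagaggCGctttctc
FOXC1 promoter: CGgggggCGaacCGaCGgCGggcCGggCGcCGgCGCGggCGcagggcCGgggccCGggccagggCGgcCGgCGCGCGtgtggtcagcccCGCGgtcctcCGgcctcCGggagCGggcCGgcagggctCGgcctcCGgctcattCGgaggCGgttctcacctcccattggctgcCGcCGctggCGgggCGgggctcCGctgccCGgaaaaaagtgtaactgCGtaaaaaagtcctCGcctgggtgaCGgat

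The SOX2 promoter held 20 CG dinucleotides and the OTX2 promoter 7. The FOXC1 promoter held 37. Over 35116 RefSeq promoters of the same length the median was 11, and at least as many CG as in the FOXC1, SOX2 and OTX2 promoters stood in 4.00%, 32.4% and 58.9% of them. The FOXC1 and SOX2 promoters thus lay above the median in CG number and the OTX2 promoter below it.

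The 5756 members fell into 2698 clusters, defined as runs of control EZH2 peaks whose neighbouring edges lay within 10 kb. Most clusters were small. A cluster held 1 member in 645 cases, with the neighbour in another class, 2 members in 1428 and 3 members in 425, while 200 clusters with at least 4 members held 980 members (17.03%). The largest held 16 members. Of the 7014 EZH2 peaks in these clusters 82.1% were members, 13.0% lay on neither mark and 2.84% lay on H3K27ac alone, and 1709 clusters (63.3%) consisted of members only. The median span of a cluster, from its first to its last edge, was 2169.5 bp (quartiles 977 and 8319 bp), and 704 clusters (26.1%) spanned under 1 kb. The longest spanned 76467 bp.

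**Figure D1:**
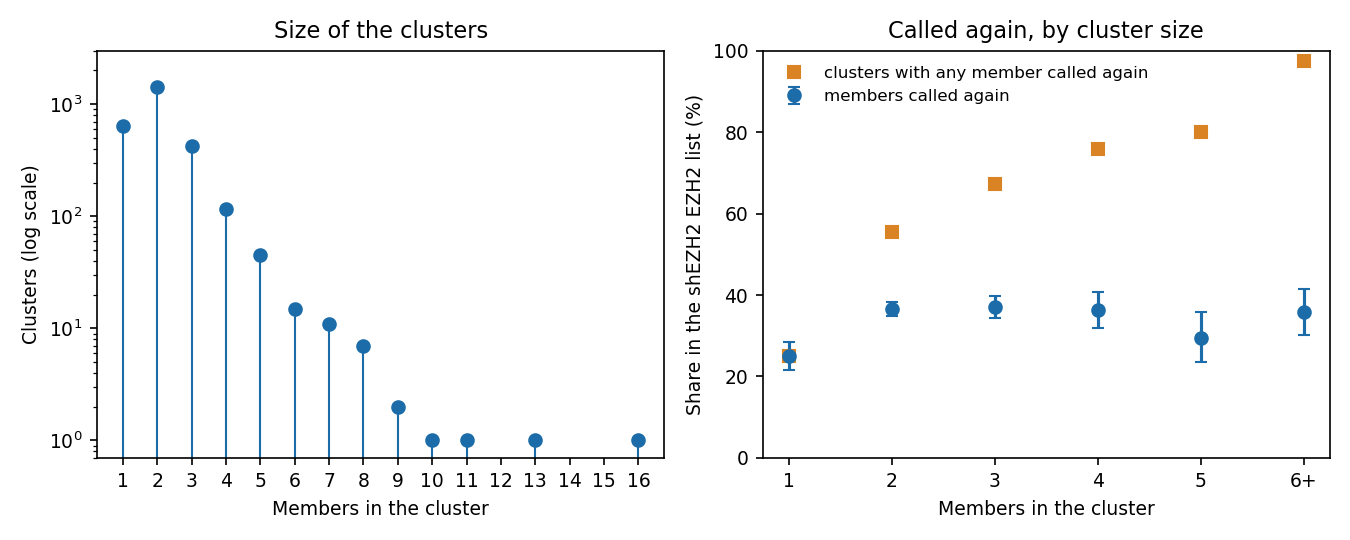
Left, number of clusters (log axis) by the number of members in them. Right, share of members called again in shEZH2 cells by cluster size (circles, with 95% exact binomial intervals) and share of clusters with any member called again (squares). Members of clusters with 2 members were called again in 36.5%, and those of clusters with 6 or more in 35.7%. A cluster with more members has more that can be called again, so the squares rise with size even at an equal share of members.

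The nearest other EZH2 peak was a median of 789 bp away from a member (quartiles 408 and 3943.5 bp). For solitary peaks the median was 33569 bp, and the rule placed the smallest distance at 10007 bp. A neighbour within 10 kb was less frequent among the 7302 peaks on H3K27ac alone (35.3%) and the 5406 on neither mark (34.3%), and it was found for 70.9% of the 461 peaks on both marks. At the border of the rule, the 193 members with a neighbour at 9 to 10 kb had a median of 11.3 tags and 21.8% were called again in shEZH2 cells, beside 11.3 tags and 21.2% for the 193 solitary peaks with a neighbour at 10 to 11 kb.

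Members carried more EZH2 tags than solitary peaks and a smaller fold over the flanking sequence. The median was 14.3 normalised tags (quartiles 9.75 and 23.3) for members, against 10.5 (8.25 and 16.5) for solitary peaks and 10.5 for all control peaks. Before scaling these medians are 19.1 tags for members and 14 for solitary peaks, so that the counts behind a single peak are small. At least 15 normalised tags were found for 47.0% of members and 30.0% of solitary peaks, and at least 50 for 255 members (4.43%) and 85 solitary peaks (2.29%). The authors' fold of a peak over the surrounding 10 kb had a median of 6.25 for members and 8.84 for solitary peaks. Tags of a neighbour can count in those surroundings, and a peak had to reach a fold of 4.00 to be listed.

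The H3K27me3 region beneath a member was wider than that beneath a solitary peak. Its median width in control cells was 1184.5 bp (95% interval 1151 to 1219) for members and 672 bp (649 to 697) for solitary peaks, and 57.2% of members but 34.0% of solitary peaks lay on a region of at least 1000 bp. Tag density differed less, with medians of 36.6 H3K27me3 tags per kb under members and 32.6 under solitary peaks. A control region needed 26.0 tags per kb in windows of 150 bp to be listed, so both medians lie near that threshold. How far the threshold narrows the difference in density was not tested. Widths and densities count a region once for each peak on it, so regions shared by members count repeatedly, while no solitary peaks shared one. How far the neighbour rule itself sets the difference in width was not tested. Members shared regions: 1111 of the 4515 control regions beneath them carried 2 or more, up to 4, and these held 2352 members (40.9%). Among members, EZH2 tags had a Spearman correlation of 0.62 with the H3K27me3 tags per kb of the region and of 0.52 with its width (n = 5756 members, many of them sharing a region). For the 3705 solitary peaks these correlations were 0.55 and 0.54.

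**Figure D2:**
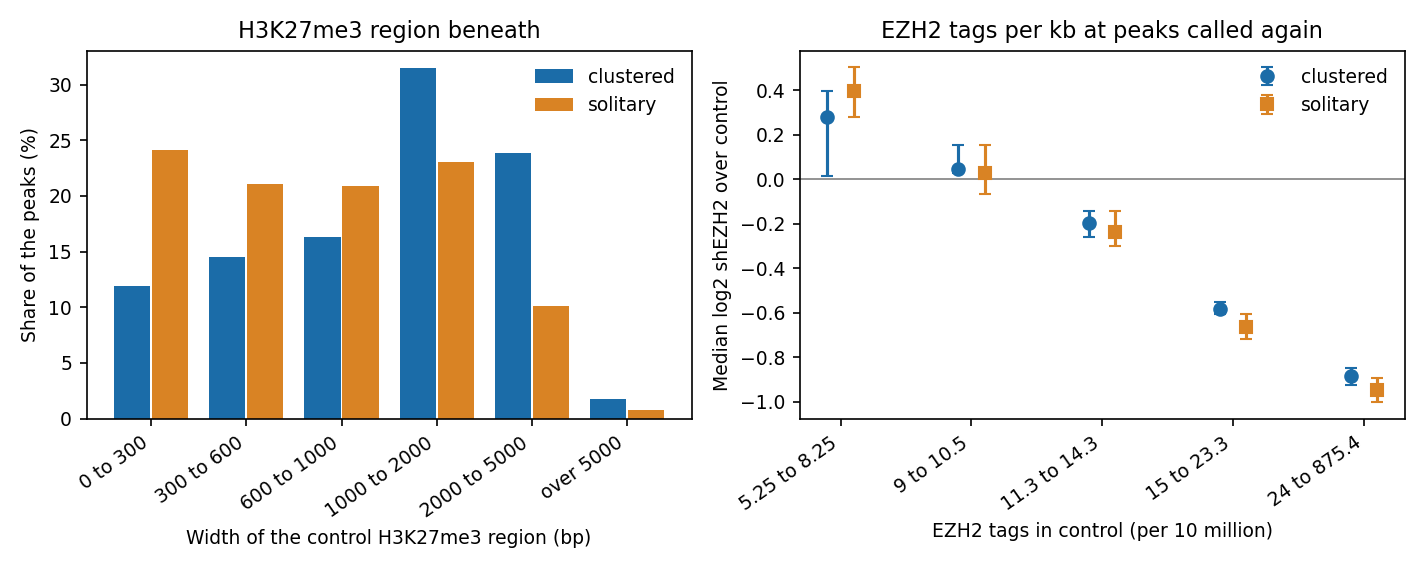
Left, share of clustered (blue) and solitary (orange) peaks by the width of the control H3K27me3 region beneath, in bp. Regions of 1000 to 2000 bp held 31.5% of clustered and 23.02% of solitary peaks. Right, median log2 of shEZH2 over control EZH2 tags per kb, with 95% order-statistic intervals, for peaks called in both lists outside repeat-rich flanks, by control tags. The clustered median was 0.28 in the lowest bin and -0.88 in the highest.

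Fewer EZH2 peaks were listed over the clusters in shEZH2 cells. Their spans held 2965 shEZH2 peaks and 7014 control peaks, a ratio of 0.423 (95% interval 0.405 to 0.441), close to the ratio of 0.412 between the lengths of the whole lists. Of the 2698 spans, 2196 held fewer peaks in shEZH2 cells, 430 as many and 72 more, and 1012 (37.5%) held none in shEZH2 cells. Control peaks alone defined the spans, so the rule itself favours fewer shEZH2 peaks in them. In those spans 658 shEZH2 peaks overlapped no control peak.

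By overlap of at least 1 bp, 2015 of the 5756 members (35.01%, 95% interval 33.8 to 36.3) were called again in the shEZH2 list. The share was 24.6% for solitary peaks (910 of 3705) and 23.1% for all control peaks. Members exceeded solitary peaks by 10.4 percentage points (8.58 to 12.3). At equal control tags, in 10 bins, the difference was 0.35 points (SE 0.804), which is within counting error. The bins went both ways: it was 8.04 points (2.34 to 13.4) at 12.8 to 14.3 tags and 4.93 at 11.3 to 12 tags, but -4.17 at 15 to 17.3 tags, -5.08 at 24 to 33.8 tags and -5.28 at 34.5 tags or more, and the interval excluded 0 in the first of these only. With a neighbour within 5 kb in the rule, the difference at equal tags was 1.77 points (0.148 to 3.39). The share called again ran from 0.909% of members (1 of 110) and 2.48% of solitary peaks with 5.25 to 6.75 tags to 77.3% of members and 82.6% of solitary peaks with at least 34.5 tags. When peaks were matched by fold over the surroundings instead, members exceeded solitary peaks by 20.1 points (SE 0.918), and by both measures together by 3.42 points (SE 0.862).

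**Figure D3:**
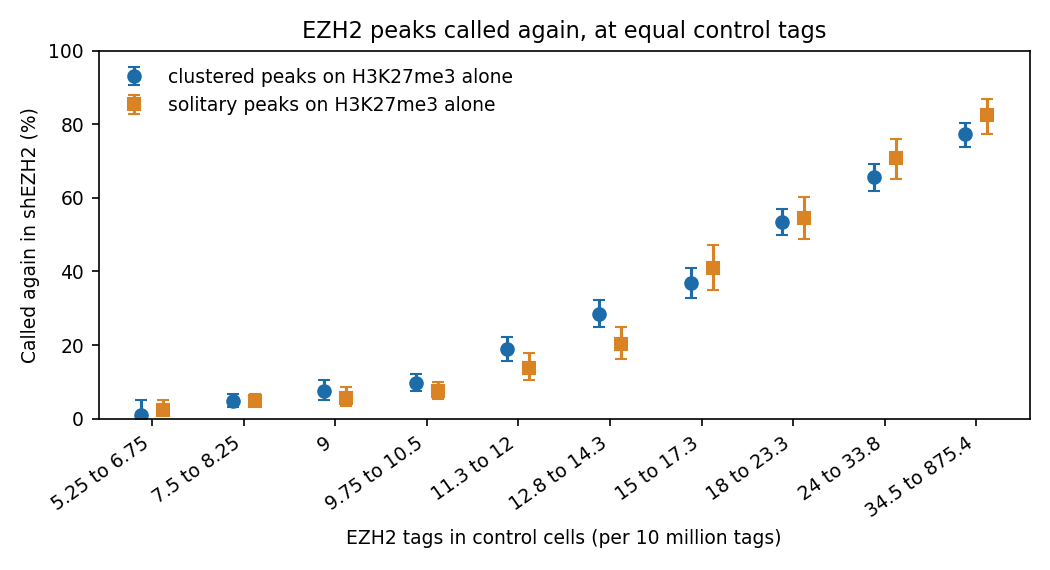
Share of EZH2 peaks called again in shEZH2 cells (vertical axis, %) in 10 bins of control tags (horizontal axis, normalised tags), for clustered peaks (circles) and solitary peaks (squares) on H3K27me3 alone, with 95% exact binomial intervals. Both classes run from under 3% in the lowest bin to over 75% in the highest.

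A shEZH2 peak with its edge within 1 kb, rather than an overlap, was found for 56.0% of members and 32.9% of solitary peaks, and at equal tags this difference was 10.5 points (SE 0.839). Since the rule gives each member a neighbour, this measure is not independent of the rule. Of the members called again, 74.6% had another shEZH2 peak within 10 kb, and of the solitary peaks called again 28.6%. Among all shEZH2 peaks the share was 50.3%. The rule chose members for a control neighbour within 10 kb and solitary peaks for lacking one, so this contrast is not independent of it either.

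Members with a very near neighbour had more tags and were called again more often. With a neighbour within 1 kb, 42.1% of 3251 members were called again and their median was 16.5 tags. With a neighbour at 1 to 2 kb 31.4% of 625 were called again (median 13.5 tags), at 2 to 5 kb 25.4% of 662 (12.0 tags) and at 5 to 9 kb 23.4% of 1025 (11.3 tags). Beyond 10 kb the share of solitary peaks stayed between 21.2% and 28.0%.

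**Figure D4:**
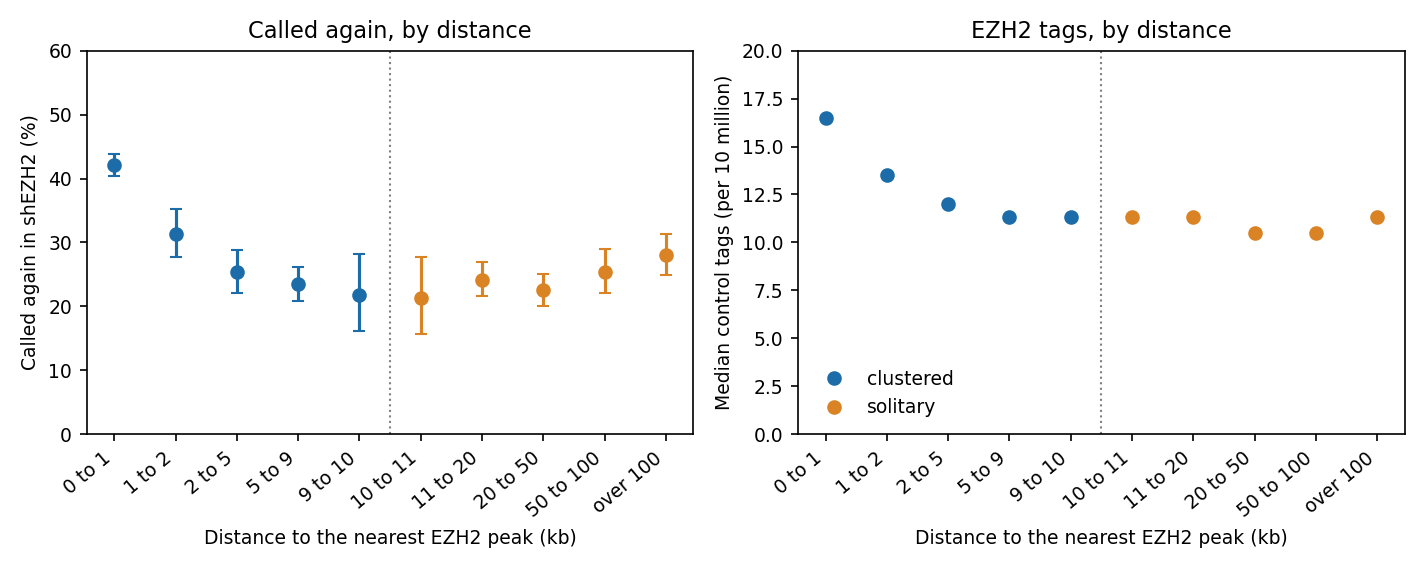
Left, share of peaks on H3K27me3 alone called again in shEZH2 cells, with 95% exact binomial intervals, by distance to the nearest control EZH2 peak in kb. Right, their median control tags. Clustered peaks are blue, solitary peaks orange, and the dotted line is the 10 kb of the rule. The highest share, 42.1%, and the highest median, 16.5 tags, belong to a neighbour within 1 kb.

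Within clusters, calls followed the tags of the single peak. In the 2053 clusters with at least 2 members, the member with the most tags (median 19.5) was called again in 48.6% and the member with the fewest (median 11.3) in 25.5%. At least 1 member was called again in 1239 of these clusters (60.4%), and all members in 301 (14.7%). Both shares depend on how many members a cluster holds. A member was called again in 48.3% of cases when its neighbour was and in 29.3% when it was not. Within 5 bins of tags that difference was between 0.21 and 5.99 points, with an interval above 0 in 1 bin only. By cluster size the share was 24.96% of lone members and between 29.3% and 37.1% in larger clusters.

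At members called in both lists, EZH2 tags per kb were lower in shEZH2 cells. Medians over the 2015 members were 77.5 tags per kb in shEZH2 cells and 127 in control cells, and the median log2 of shEZH2 over control was -0.63 (95% interval -0.66 to -0.60). Fewer cells with EZH2 at a site and less EZH2 per cell cannot be told apart in such libraries. It was below 0 at 88.2% of these members, beside 85.3% of 910 solitary peaks called again and 71.2% of all 5330 control peaks called again. The median was -0.66 for solitary peaks and -0.39 for all peaks. A peak called again had to pass the shEZH2 threshold of 45.6 tags per kb, so a weak peak could be seen in both lists only where it had not fallen far. Over the 1906 members called again outside repeat-rich flanks, the median ran from 0.28 at members with 5.25 to 8.25 tags to -0.88 at members with at least 24 tags. The 109 members called again in repeat-rich flanks had a median of -0.16. If tags are scaled to the tags in all listed peaks rather than to the library, the median becomes 0.43, so the direction rests on scaling by library size.

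By a lower threshold, H3K27me3 was listed at nearly all members in shEZH2 cells. A shEZH2 region covered 5721 members (99.4%), against 98.8% of solitary peaks and 56.3% of all control peaks. The authors called the mark with windows of 1000 bp at a threshold of 9.53 tags per kb in shEZH2 cells and of 150 bp at 26.0 tags per kb in control cells, so that widths, densities and the number of regions cannot be compared between the groups, and a share near 100% cannot be read as an unchanged mark. In the upper 50% of the shEZH2 list by score the share of members was 71.9%. The region at a member had a median width of 6719 bp and 22.8 tags per kb in shEZH2 cells, beside 1184.5 bp and 36.6 tags per kb in control cells. Of the 2933 pairs of neighbouring members, 2392 (81.6%) lay in 1 shEZH2 region and 1239 (42.2%) in 1 control region. Among shEZH2 regions, which share 1 calling, those at members were wider than those at solitary peaks (median 4521 bp) and denser (solitary 18.3 tags per kb). Here too a region counts once for each peak on it. The 35 members outside any shEZH2 region lay on narrow control regions, with a median width of 151 bp, and 12 of them were called again and 12 lay on shEZH2 H3K27ac.

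H3K27ac was listed at few members in shEZH2 cells. By the rule none lay on H3K27ac in control cells, where a region needed 34.4 tags per kb in windows of 150 bp, while in shEZH2 cells it needed 9.47 tags per kb in windows of 1000 bp. The share in shEZH2 cells can therefore not be read as a gain of the mark. In shEZH2 cells 452 members (7.85%, 95% interval 7.17 to 8.58) overlapped an H3K27ac region, against 180 solitary peaks (4.86%) and 41.8% of all control peaks. Members exceeded solitary peaks by 2.99 points (2.00 to 3.96), and by 1.503 points (SE 0.513) at equal tags. These regions had few tags, with a median of 13.2 tags per kb beside 15.9 over all shEZH2 H3K27ac regions, which is below the control threshold. Of the members, 145 of the 452 (32.1%) lay in a shEZH2 region that also touched a control H3K27ac region, against 31 of the 180 solitary peaks (17.2%). A control H3K27ac region lay within 10 kb of 14.4% of all members and 8.39% of all solitary peaks, and its part in the difference was not tested. In shEZH2 cells 440 of the 452 also lay on H3K27me3.

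The H3K27ac share differed with the other peaks of the cluster. It was 26.6% of the 259 members whose cluster held a peak on H3K27ac alone and 6.97% of the 5497 others, and 18.4% of the 645 lone members. With the neighbour also required to be on H3K27me3 alone, the share was 6.42% and the difference from the remaining peaks -0.55 points (-1.57 to 0.46). Members on shEZH2 H3K27ac were called again in 48.7%, the others in 33.8%. Solitary peaks differed in the same way, with 46.1% and 23.5%, so this is not particular to members. Tags were not matched in these shares.

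The 10 clusters with the most members are shown as maps. The largest, at chr5:140202775-140263564, held 16 members with 9 to 24 tags, of which 9 were called again, and 11 shEZH2 peaks with 6.89 to 14.5 tags. It lies in the window of the clustered protocadherins, genes for neuronal cell adhesion proteins arranged in tandem arrays, and so do the next clusters by size. The one at chr5:140751756-140821501 held 13 members with 7.5 to 16.5 tags, of which 3 were called again, and 4 shEZH2 peaks with 7.58 to 9.65 tags. The one with 11 members, at chr5:140554170-140604938, had members with 19.5 to 35.3 tags, of which 4 were called again, and 9 shEZH2 peaks with 11 to 17.9 tags. In all 3 the strongest shEZH2 peak had fewer tags than the strongest control peak. It was the highest of fewer peaks, and shEZH2 windows were narrower, 151 bp beside 183 bp. The tags are scaled by library size.

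In the cluster at chr2:176957739-177001549, in the HOXD window of homeobox genes that pattern the body axis and limbs, 6 of 8 members were called again. Its 8 shEZH2 peaks had 8.96 to 37.9 tags and its 8 members 12.8 to 63 tags in control cells. At chr6:1587324-1612092, in the FOXC1 window, 3 of 8 members were called again, and the 3 shEZH2 peaks had 16.5 to 24.1 tags, beside 7.5 to 44.3 tags of the 8 members. All 3 lay at the right end of the cluster, and the other 5 members had no shEZH2 peak. The remaining 5 clusters lay at chr8:2112224-2177054, chr7:157944061-157986354, chr2:105460045-105489989, chr20:61637783-61675540 and chr13:112708288-112733328, with 10, 9, 9, 8 and 8 members, of which 3, 4, 4, 1 and 3 were called again. No cluster of the 10 held more shEZH2 peaks than control peaks, and the numbers were equal in the HOXD cluster. These clusters were picked for their many control peaks, so this direction was favoured by the choice.

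**Figure D5:**
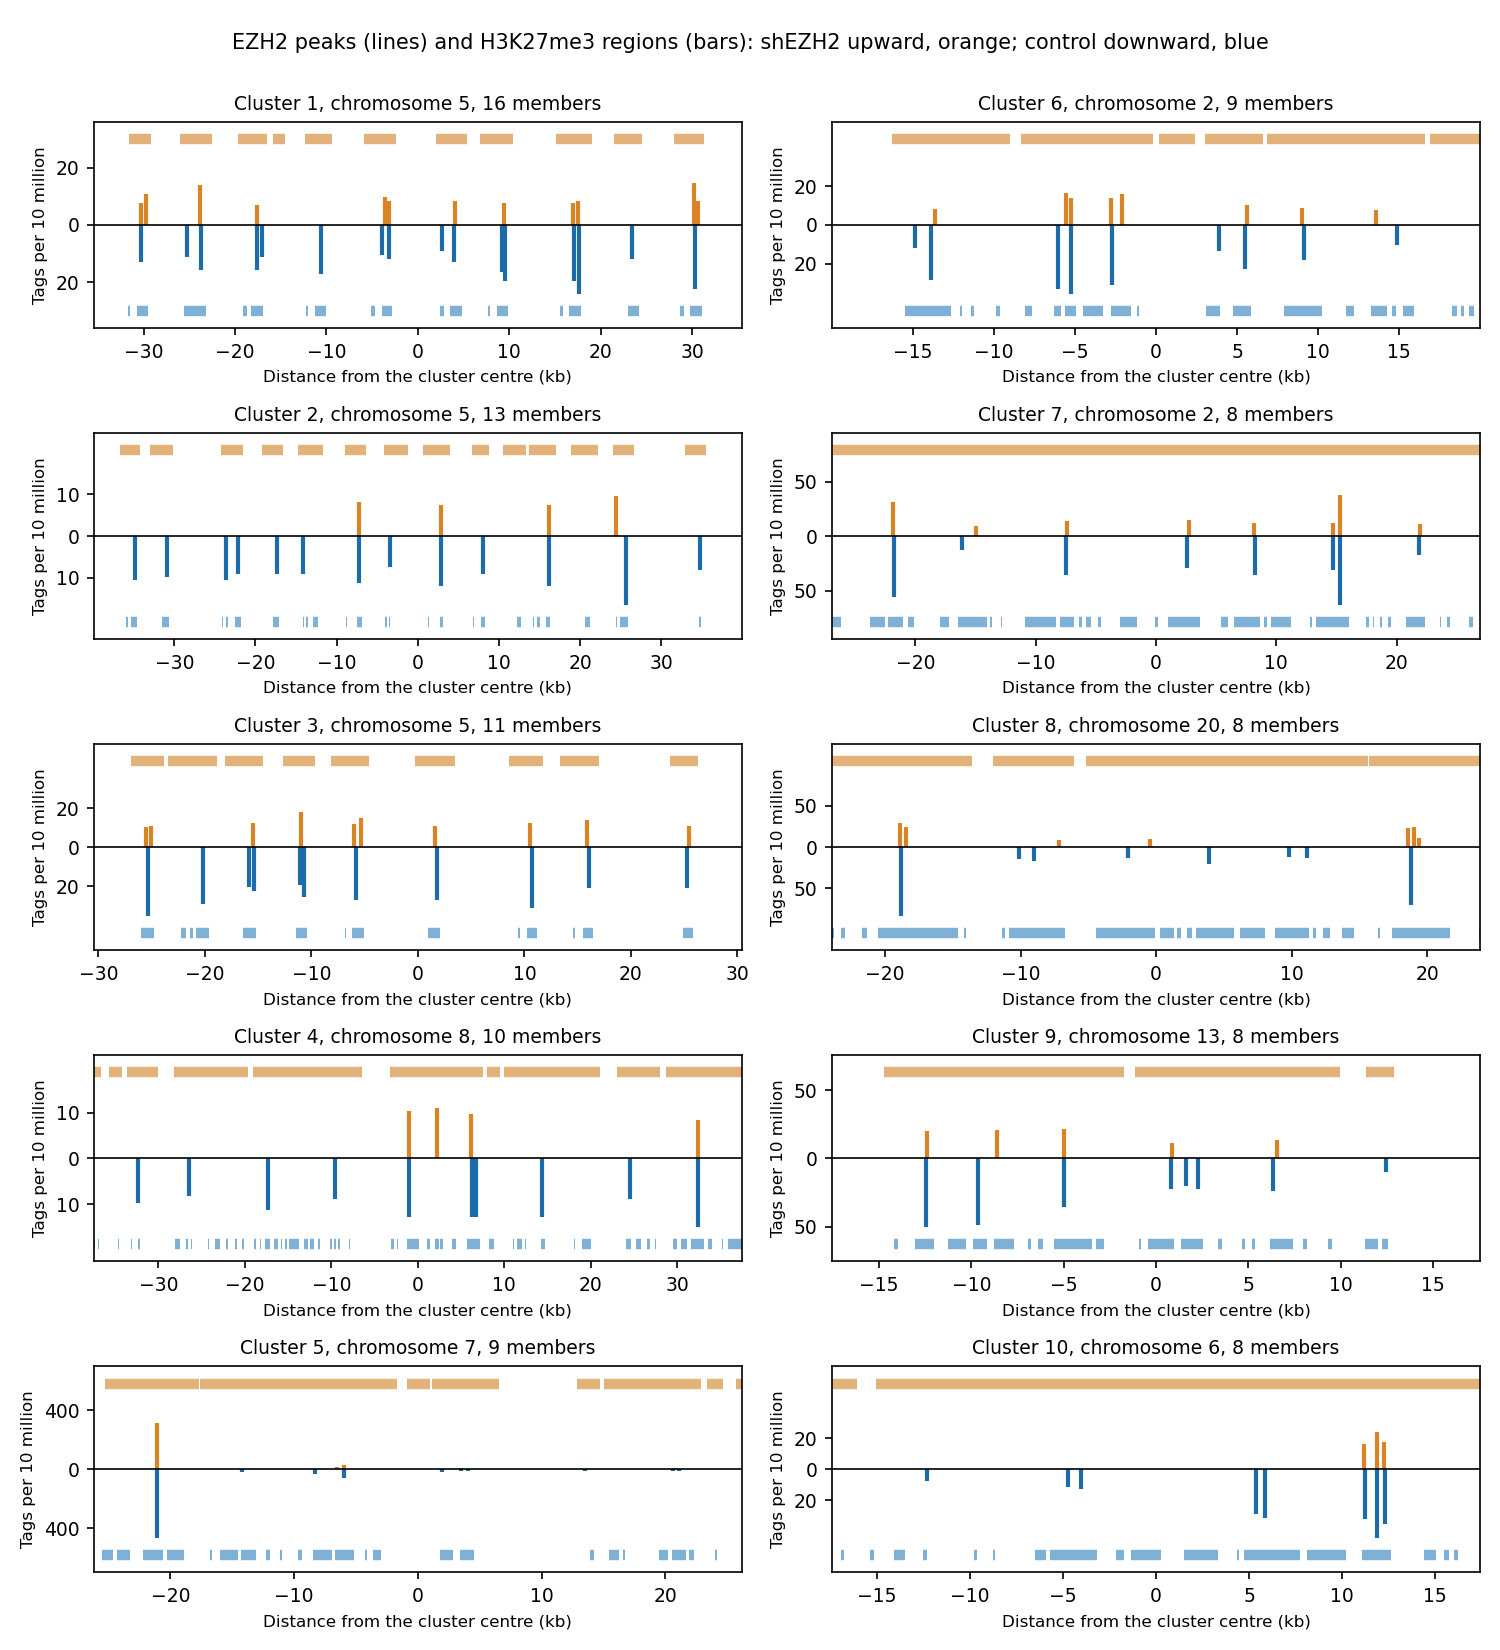
EZH2 peaks (lines, height in normalised tags) and H3K27me3 regions (bars) over the 10 clusters with the most members, by distance from the cluster centre in kb, with shEZH2 cells upward in orange and control cells downward in blue. Bars are wider upward, where the authors called regions with wider windows. The first cluster has 11 shEZH2 and 16 control peaks.

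Single peaks of smaller clusters are given in normalised tags per window, and shEZH2 windows were narrower, 151 bp beside 183 bp in control cells. The SOX2 window held shEZH2 peaks of 17.2, 20 and 11 tags, and its 6 members had 22.5, 18, 8.25, 11.3, 57.8 and 9 tags in control cells. The member with 57.8 tags, at chr3:181430656-181430838, had 20 tags in shEZH2 cells, and that with 9 tags had 11. The other 4 members around SOX2 were not called again. The OTX2 window held 6 shEZH2 peaks with 6.89 to 16.5 tags and 6 members with 10.5 to 21.8 tags, of which 4 were called again, each with fewer tags in shEZH2 cells. The member with 21 tags, at chr14:57265008-57265190, was not.

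Over 29 windows of known Polycomb targets, 24 held members. Of their 287 peaks on H3K27me3 alone, 85.7% were clustered, beside 60.8% of all peaks on H3K27me3 alone. These were 246 members, of which 94 (38.2%, 32.1 to 44.6) were called again, beside 35.01% of all members. Outside the protocadherin window 68 of 180 members were called again. The protocadherin window had 66 members among 70 peaks on H3K27me3 alone and the HOXD window 19 among 20. The HOXA window had 1 member, HOXB 2 and HOXC none. Fewer EZH2 peaks were listed in shEZH2 than in control cells in 24 windows, as many in 4 and more in 1, that of GATA4, a factor of heart and endoderm, with 9 shEZH2 and 8 control peaks.

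The members with the most tags lay mostly at few places. The highest, at chr2:89875225-89875407, had 1052.7 tags in shEZH2 cells and 875.4 in control cells, and its clonal fold, the observed over the expected tags per position, was 1.8, against a median of 0.97 over members. The next, at chr7:157944061-157944243, had 314.9 tags in shEZH2 cells and 465.1 in control cells. A stretch of chromosome 8 from 86.5 to 86.9 Mb held 21 of the 39 members with at least 100 tags. Its 26 members had a median of 116.3 tags in control cells, its 23 shEZH2 peaks one of 55.1 tags, and 23 of the 26 lay on shEZH2 H3K27ac, beside 7.49% of all other members. What repeated sequence contributes to these values was not tested.

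By position, which the rule used and which is given as a description, a larger share of members than of solitary peaks lay near chromosome ends. Within 5 Mb of an end lay 1713 members (29.8%), 22.2% of solitary peaks and 21.95% of all control peaks. Of the 39 clusters with at least 6 members, 20 (51.3%) lay there, beside 27.7% of all clusters. Members near ends were called again in 27.2% and those elsewhere in 38.3%, with medians of 12.8 and 15 tags, and at equal tags the difference was -6.56 points (SE 1.14). For solitary peaks it was -4.01 points (SE 1.37) at equal tags. Chromosome 18 had the highest share of its EZH2 peaks among the members (42.8%), followed by chromosome 13 (36.2%). On chromosome X 10 of 57 members (17.5%, 8.75 to 29.9) were called again, the lowest share of a chromosome.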

How the data were processed

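Chromatin from LNCaP cells was immunoprecipitated for EZH2, H3K27ac and H3K27me3, with 1 library per group and target. Samples were grouped by their titles. BWA 0.6.1, HOMER 4.1 and hg19 are named in the submitters' processing notes. Per the file headers, each library was called alone and no input library is named. EZH2 peaks were fixed windows of 151 bp in shEZH2 and 183 bp in control cells at a false discovery rate of 0.001, at least 4.00-fold over the surrounding 10000 bp. Mark regions came from windows of 1000 bp at a Poisson probability of 0.001 in shEZH2 cells and of 150 bp at a false discovery rate of 0.001 in control cells. The deposited signal is tags scaled by the authors to 10000000 per library. Peaks were ranked within a list by the caller's deposited score. The fold over the surroundings, a deposited ratio, and the clonal fold were used to describe and match peaks. The deposited p-value against the surroundings was not used. The deposited fraction of tags on the side of the centre where they should fall entered no comparison.

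Overlap meant at least 1 bp. Intervals at 95% are Clopper-Pearson (exact binomial) for shares, Newcombe for their differences and order-statistic for medians, and differences at equal tags carry Mantel-Haenszel weights over 10 bins. No p-value was computed. Repeat-rich flanks were 2 Mb on either side of the longest stretch of a chromosome without a listed region, located from the lists, and held 304 members. Repeat content itself was not measured, so the name is only a label. On chromosomes 13 and 14 this stretch began at 71155386 and 44444275 bp, far from the first listed regions at 19068147 and 19000695 bp. There the flanks may hold ordinary sequence. Overlap counts were checked against bedtools on the real lists, and differences of shares at equal tags were tried on simulated data. Named regions were the 10 clusters with the most members, and, outside repeat-rich flanks, the 10 members with the most tags and the 10 with the most tags on shEZH2 H3K27ac. SOX2, OTX2 and FOXC1 and the chromosome 8 stretch were chosen after values were seen. The members, landmark windows and comparisons were chosen with earlier results of these data known. Gene placement and peak sequence need hg19 and were not used here. Software was scipy 1.17.1, pandas 2.3.3, numpy 2.4.6 and matplotlib 3.10.9 under Python 3.11.15.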

Additional observations from a re-analysis of the deposited data

How the results depend on the processing

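No paired analysis was possible because each group had 1 library per target. For the same reason no replicate could be left out, and depth limits single peaks, whose median was 19.1 tags before scaling. Of 89 values recomputed under an alternative, 44 stayed within the 95% interval of the reported value or, for numbers of members, within 1.5 times of it, 43 moved further and 2 turned from a value whose interval excluded 0 to the other sign. The difference at equal tags, whose interval includes 0, was below 0 with a neighbour within 20 kb (-0.62), with a neighbour also on H3K27me3 alone (-0.12), in bins of score (-0.37) and without acrocentric starts (-0.07), and with a neighbour within 5 kb it was 1.77 (0.148 to 3.39), an interval above 0. With at least 50% of a peak covered, 25.1% of members were called again, 7.95 points above solitary peaks, and the control H3K27me3 width was 1242 bp. With a neighbour within 5 kb these were 38.2%, 13.98 points and 1256.5 bp, the median was 15 tags, and H3K27ac was at 8.84%, 4.14 points above solitary peaks. Within 20 kb they were 33.1%, 8.07 points and 1105 bp. With a neighbour also on H3K27me3 alone, 36.4% were called again, the width was 1266 bp, shEZH2 H3K27me3 was at 99.8%, H3K27ac at 6.42% with the difference turned to -0.55 points, and the ratio of peaks over spans was 0.457. Without repeat-rich flanks H3K27ac was at 7.14%. In the upper 50% of the control list by score there were 3649 members with 18.8 tags, 47.8% called again, a log2 of -0.66, a width of 1511 bp, H3K27me3 at 99.6%, H3K27ac at 9.32% with a difference of 1.54 points, and a span ratio of 0.606. With a shEZH2 edge within 1 kb, 56.0% matched, 23.1 points above solitary peaks. Matching by fold gave 20.1 points and by tags and fold 3.42. Tags per window gave a log2 of -0.91, and scaling to listed tags turned it to 0.43. The upper 50% of the shEZH2 H3K27me3 list left 71.9%, and of the H3K27ac list 4.05% with a difference of 1.89 points. These were added after seeing the data: without 5 Mb at chromosome ends, 38.3% were called again (12.8 points) and H3K27ac was at 9.47% (4.097 points), and with 1 member per cluster these were 33.0% (8.43 points) and 9.60% (4.74 points). The match by tags and fold together was also added then, as was leaving out the first 2 Mb listed on acrocentric chromosomes, which moved no value out of its interval. Apart from the built-in effect of fewer or other peaks, the cause of these changes was not tested.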
